A study of Mus musculus with 6 samples.

Results

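The transcripts of the p38 MAP kinases, of the kinases that switch them on, of their substrate *Atf2* and of the RSK kinases were measured in brown adipose tissue (BAT) of mice without the microRNA miR-22. The members were 10 genes given by symbol, namely *Mapk14*, *Mapk11*, *Mapk12* and *Mapk13* (p38α, p38β, p38γ and p38δ), *Map2k3* and *Map2k6* (the kinases MKK3 and MKK6), *Atf2*, and *Rps6ka1*, *Rps6ka2* and *Rps6ka3* (RSK1, RSK3 and RSK2). The symbols were chosen with earlier results of these data known. Every array probe whose RefSeq annotation led to one of them was taken, whatever its measured values. This gave 18 of the 56605 non-control probes, and 10 of the 23462 genes with a matched probe. Of the 10 genes, 4 had 1 probe, 4 had 2 probes and 2 had 3 probes, and all 18 probes were well above background on all 6 arrays. Probes of one gene are numbered below in order of brightness, and each gene's name here stands for its transcript, not for kinase protein or activity.

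The p38 kinases form a stress-activated branch of the MAP kinase family and are switched on by dual phosphorylation, carried out mainly by MKK3 and MKK6. In brown adipocytes, β-adrenergic stimulation raises cAMP and activates protein kinase A, and p38 acts downstream of it. Activated p38 phosphorylates ATF2 and the coactivator PGC-1α, both of which promote transcription of *Ucp1*, the uncoupling protein that lets mitochondria make heat. The RSK kinases belong to the neighbouring ERK branch, in which RAS, RAF, MEK and ERK act in turn, and they phosphorylate transcription and translation factors such as CREB and ribosomal protein S6.

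RNA came from BAT of male mice at 8 weeks of age, 3 wild-type (WT) mice and 3 miR-22 KO mice, with 1 mouse per single-dye Agilent array. The KO was constitutive, so miR-22 was missing from every tissue and not from brown adipocytes alone. The labels name no drug, no cold treatment and no strain. The comparison asks how the transcripts of this kinase cascade differ between BAT with and without miR-22. The series' design text speaks of a flow separation of the samples before RNA extraction, without naming the cells that were kept. Mice are named WT1 to WT3 and KO1 to KO3 in label order, and the labels do not pair them across groups. The study calls the controls littermates, but which mice shared a litter is not given. All 6 arrays lay on 1 slide, with WT1 and WT2 in the first row and WT3 and all KO mice in the second. A difference given below with the slide row as a block therefore sets the KO mice against WT3 alone.

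The microRNA deleted in the KO mice is shown here because its absence is the only stated difference between the groups. The mature sequences are those of RefSeq on GRCm38.p6, on the plus strand of chromosome 11, and capitals mark the seed, bases 2 to 8, by which a microRNA pairs with its targets.
mmu-miR-22-3p, chr11:75463772-75463793: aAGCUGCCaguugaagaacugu
mmu-miR-22-5p, chr11:75463734-75463755: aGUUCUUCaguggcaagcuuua
The 2 arms had different seeds, AGCUGCC and GUUCUUC. The array has no probe that was matched to mature miR-22. The probe of its host transcript, *Mir22hg*, read 1.20, 1.69 and 1.22 in WT1 to WT3 and 2.02, 2.11 and 2.23 in KO1 to KO3, so that all KO mice lay above all WT mice. Its place relative to the deleted segment was not known, and it therefore did not check the genotype.

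Values are scaled log2 signals: the log2 intensity of a probe minus that at the 75th percentile of its array, controls aside, so that 0 is the signal at that percentile and each unit is a doubling. Between 55.8 and 66.5% of the spots per array were well above background. The scanner software marked 4.87 to 6.12% of the spots as non-uniform or outlying on 4 arrays, but 17.1% on WT3 and 15.1% on KO1, and these spots were left out of the tests. Of the 108 member spots, 13 carried a mark. The mean of 20 skeletal muscle genes ranged from -3.84 in WT3 to 3.54 in KO2, whereas the mean of 12 brown adipocyte genes, all well above background on 6 arrays, stayed between 2.84 and 3.12 in WT mice and between 2.44 and 2.97 in KO mice. In whole tissue, fewer cells of a type and less RNA per cell cannot be told apart.

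Of the 16 member probes that could be tested, 4 were lower and 3 were higher in miR-22 KO mice at an unadjusted limma p under 0.05, the threshold of the study's methods. The lower probes belonged to *Map2k6*, *Rps6ka1* and *Rps6ka3* and the higher probes to *Mapk11*, *Mapk12* and *Rps6ka2*, while 4 genes had no probe past the threshold. These counts are 25% and 18.8% of the tested member probes, against 6.74% lower and 9.7% higher among all 31238 tested probes. Since the genes were chosen with earlier results of these data known, these shares do not test the members as a set. After Benjamini-Hochberg adjustment over those probes, limma called 0 member probes, as did SAM and the methods' t-test, and the smallest adjusted p of a member was 0.158. Over the whole array limma called 34 probes after adjustment, or 0.109%. Without using the test, 12 member probes had no marked spot, and in these the KO mice lay below all WT mice for 4 probes and above them for 4 others, against 11.7% and 13.9% of the 25959 such probes of the array. The fraction of lower among all called probes was 41% with the scaling used here, but 59.7% after quantile normalization and 61.2% in the authors' processed values, and under each of these the members counted 4 lower and 1 higher.

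**Figure D1:**
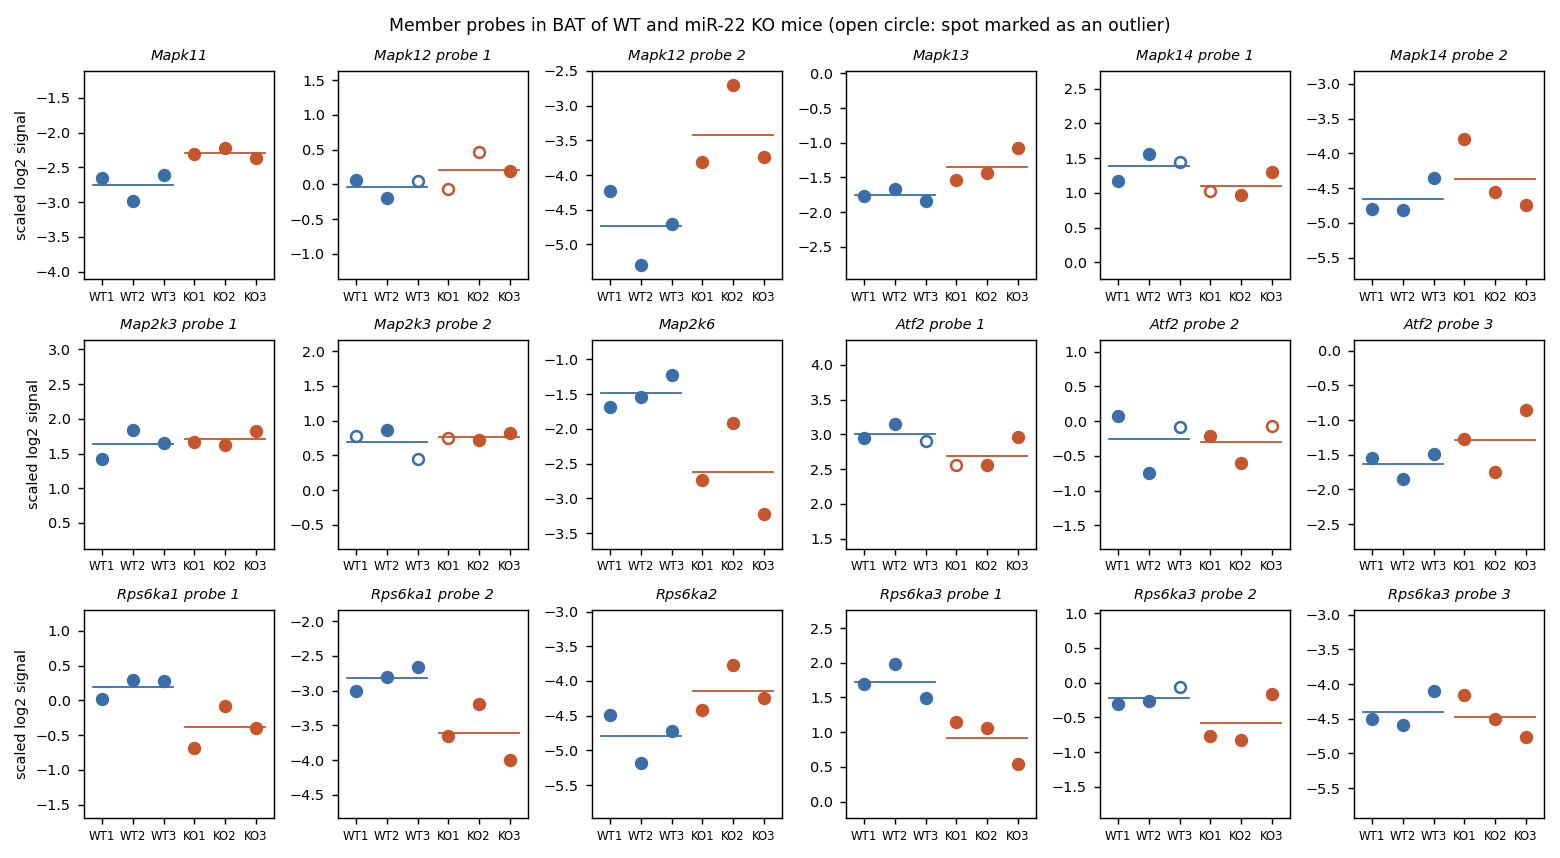
Scaled log2 signal (y axis) of the 18 member probes in each of 3 WT mice (blue) and 3 miR-22 KO mice (red), with a line at each group's mean over all 3 spots and open circles for marked spots; every panel spans the same number of log2 units. *Map2k6*, both *Rps6ka1* probes and *Rps6ka3* probe 1 show all KO mice below all WT mice, and *Mapk11*, *Mapk12* probe 2, *Mapk13* and *Rps6ka2* show the opposite.

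Among the activators, *Map2k6* was lower in KO mice and *Map2k3* was not distinguishable between the groups. *Map2k6* encodes MKK6, which phosphorylates all p38 isoforms, and its single probe, A_55_P2913699, read -1.69, -1.55 and -1.22 in WT1 to WT3. In KO1 to KO3 it read -2.74, -1.92 and -3.22. All KO mice lay below all WT mice, with KO2 nearest to the WT range and KO3 farthest from it. The group means were -1.49 ± 0.24 in WT mice and -2.62 ± 0.66 in KO mice (SD, n = 3 each). This is a log2 difference of -1.14 ± 0.33 (SE), a level 2.2-fold lower in KO mice (limma, 95% confidence interval -1.92 to -0.36, unadjusted p = 0.0106, Benjamini-Hochberg adjusted p = 0.172). It was the most negative difference of the tested members. With the slide row as a block, which sets the KO mice against WT3 alone, the difference was -1.40. It was -1.13 with the skeletal muscle mean as a covariate, past the unadjusted threshold, and -0.95, not past it, when WT3 and KO1 were both left out. Leaving out single arrays gave differences between -1.49 (without KO2) and -0.84 (without KO3), all past that threshold.

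*Map2k3*, which encodes MKK3, had a pair of probes. Probe 1, A_55_P2805669, read 1.42, 1.84 and 1.65 in WT mice and 1.67, 1.63 and 1.82 in KO mice, so the groups overlapped. The difference was 0.07 ± 0.17 (SE), with a 95% confidence interval from -0.33 to 0.46 (limma, Benjamini-Hochberg adjusted p = 0.867). Probe 2, A_51_P272817, carried marks on WT1, WT3 and KO1 and could not be tested without them. With the marked spots kept it also gave 0.07 ± 0.16 (SE), with an interval from -0.32 to 0.45. Both intervals leave out a fall as large as the estimate for *Map2k6*, but whether the 2 kinases differed in their change was not tested.

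**Figure D2:**
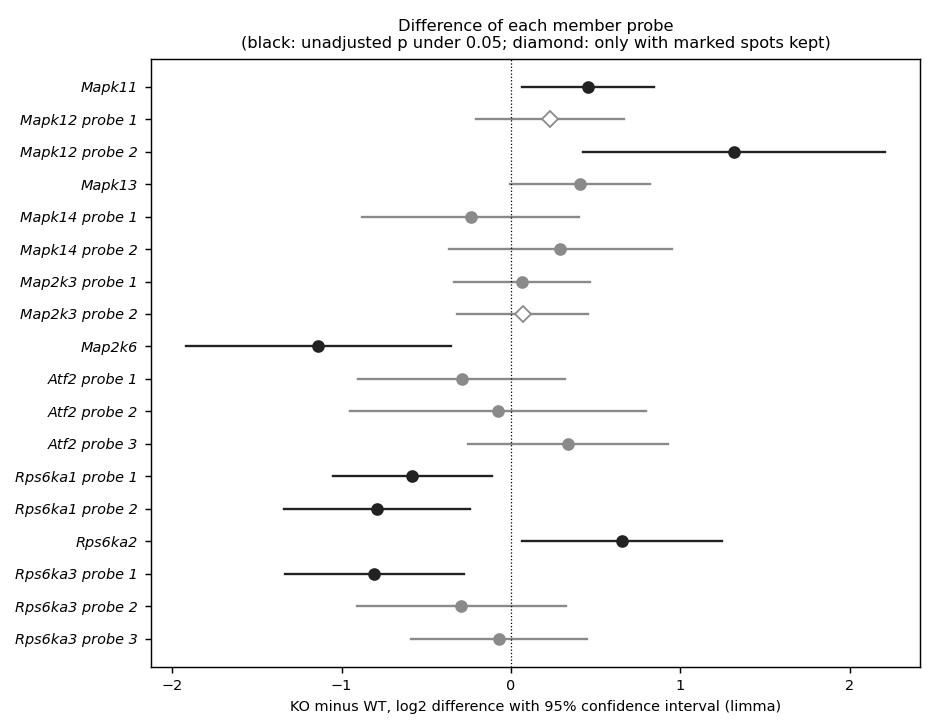
Log2 difference, KO minus WT, of each member probe (x axis) with its 95% confidence interval from limma; black marks an unadjusted p under 0.05, grey a larger one, and open diamonds are probes that could be fitted only with marked spots kept. *Mapk12* probe 2 lies farthest to the right at 1.32 and *Map2k6* farthest to the left at -1.14, and 7 intervals exclude 0.

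Of 5 tested probes of the p38 isoforms, 4 had a difference above 0. Of these, 2, of *Mapk11* and *Mapk12*, were higher in KO mice at the threshold, while none was lower (limma, unadjusted p under 0.05). Over all tested probes, 9.7% were higher and 6.74% lower. The 4 probes had mean signals below 0, in ranges where 36.1 to 45.9% of all tested probes had a difference below 0. Differences between the isoforms were not tested. *Mapk14* encodes p38α, the isoform best known in adipocytes. Its probe 1, A_55_P2046338, read 1.17, 1.56 and 1.45 in WT mice and 1.03, 0.96 and 1.29 in KO mice, with the WT3 and KO1 spots marked. KO3 lay above WT1, so the groups overlapped. Without the marked spots the difference was -0.24 ± 0.25 (SE, 2 mice per group), with a 95% confidence interval from -0.88 to 0.40 (limma, Benjamini-Hochberg adjusted p = 0.671). With them it was -0.30. Its probe 2, A_55_P2179348, was dim, reading -4.79, -4.82 and -4.36 in WT mice and -3.80, -4.56 and -4.75 in KO mice. Here KO1 stood above all others and the rest overlapped, and the difference was 0.29 ± 0.28 (SE) with an interval from -0.37 to 0.95. It was 0.0050 without KO1, 0.088 after normexp background correction and -0.0073 with the slide row as a block. Neither *Mapk14* probe passed the threshold in any setting run.

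*Mapk11*, which encodes p38β and neighbours *Mapk12* on the chromosome, was measured by 1 probe, A_52_P168449. It read -2.66, -2.99 and -2.61 in WT mice and -2.31, -2.22 and -2.36 in KO mice. All KO mice lay above all WT mice, and the KO values were close together. The means were -2.75 ± 0.21 and -2.30 ± 0.07 (SD, n = 3 each), a difference of 0.45 ± 0.17 (SE) or 1.37-fold (limma, 95% confidence interval 0.07 to 0.84, unadjusted p = 0.0280, Benjamini-Hochberg adjusted p = 0.244). It did not pass the unadjusted threshold without WT2 (0.34), without KO1 (0.46) or without KO2 (0.42), after quantile normalization (0.33) or normexp background correction (0.26), or with the slide row as a block (0.31).

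*Mapk12*, which encodes p38γ and is best known from skeletal muscle, had a bright and a dim probe that gave different differences. Probe 1, A_52_P252258, read 0.06, -0.20 and 0.04 in WT mice and -0.06, 0.47 and 0.19 in KO mice. Its WT3, KO1 and KO2 spots were marked, which left a single KO value, so it was not tested in that setting. With all spots kept the groups overlapped, and the difference was 0.23 ± 0.19 (SE) with a 95% confidence interval from -0.20 to 0.67 (limma, Benjamini-Hochberg adjusted p = 0.533). Probe 2, A_55_P2739363, had no marked spot and read -4.23, -5.29 and -4.71 in WT mice and -3.82, -2.70 and -3.75 in KO mice. All KO mice lay above all WT mice, KO2 by the widest margin. The means were -4.74 ± 0.53 and -3.42 ± 0.62 (SD, n = 3 each). The difference of 1.32 ± 0.38 (SE), or 2.49-fold, was the most positive of the tested members (limma, interval 0.43 to 2.21, unadjusted p = 0.00994, Benjamini-Hochberg adjusted p = 0.169). It was 0.65 after normexp background correction, still past the unadjusted threshold, and 1.28 with the slide row as a block, not past it.

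Skeletal muscle genes varied between mice, and *Mapk12* was read beside them. The mean of the 20 muscle genes was 2.52, 1.79 and -3.84 in WT1 to WT3 and -0.10, 3.54 and 1.66 in KO1 to KO3. KO2 was highest in the muscle mean and on both *Mapk12* probes. WT3, which was lowest in the muscle mean by more than 3 log2 units, was the lowest mouse on neither *Mapk12* probe. With the muscle mean as a covariate, the difference of *Mapk12* probe 2 was 1.21 (limma, unadjusted p = 0.0212, Benjamini-Hochberg adjusted p = 0.248). The part of muscle RNA in the value of any one mouse was not tested.

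**Figure D3:**
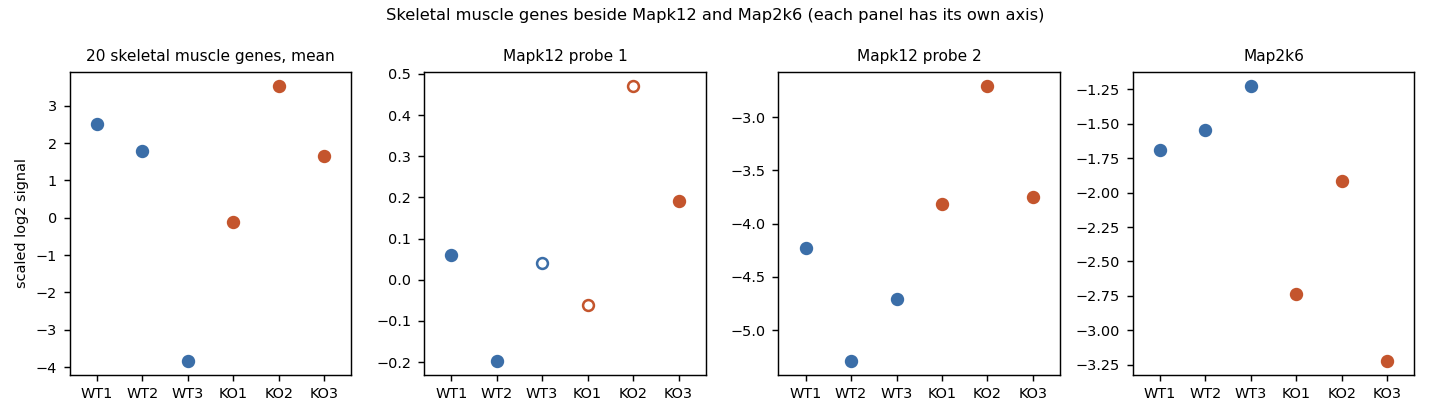
Scaled log2 signal (y axis), averaged over 20 genes of skeletal muscle in the first panel, beside *Mapk12* probe 1, *Mapk12* probe 2 and *Map2k6* in the same 3 WT (blue) and 3 miR-22 KO mice (red); open circles are marked spots and each panel has its own y axis. The muscle mean spans -3.84 to 3.54, with WT3 lowest and KO2 highest, and WT3 is lowest in none of the 3 kinase panels.

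*Mapk13*, which encodes p38δ, came close to the threshold. Its probe, A_51_P239203, read -1.76, -1.67 and -1.84 in WT mice and -1.54, -1.44 and -1.08 in KO mice. All KO mice lay above all WT mice, KO3 by the widest margin. The difference was 0.41 ± 0.17 (SE), with a 95% confidence interval from -0.01 to 0.82 (limma, unadjusted p = 0.0522, Benjamini-Hochberg adjusted p = 0.309). With the same difference it was past the unadjusted threshold when marked spots were kept, when every probe had to be well above background on all 6 arrays, with 1 probe per gene, and with trended robust eBayes. It was also past it without KO1 (0.4998). These were 5 of the 23 alternatives for this probe, and the others did not pass, although all 23 kept the direction. Among those that did not pass were 0.32 after quantile normalization, 0.37 with the muscle covariate, 0.49 with the slide row as a block and 0.27 without KO3.

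*Atf2*, a transcription factor phosphorylated by p38, had 3 probes, none of which differed between the groups at the threshold. Probe 1, A_55_P2062891, read 2.95, 3.15 and 2.90 in WT mice and 2.56, 2.57 and 2.96 in KO mice. KO1 and KO2 lay below all WT mice and KO3 lay among them, and the WT3 and KO1 spots were marked. The difference without the marked spots was -0.29 ± 0.24 (SE), with a 95% confidence interval from -0.90 to 0.32. Probe 2, A_52_P130596, gave -0.08 ± 0.34 (SE) with both groups spread over more than its size. Probe 3, A_52_P116253, read -1.54, -1.84 and -1.495 in WT mice and -1.27, -1.75 and -0.86 in KO mice. There KO1 and KO3 lay above all WT mice and KO2 among them, and the difference was 0.34 ± 0.25 (SE) with an interval from -0.25 to 0.92 (limma, Benjamini-Hochberg adjusted p from 0.530 to 0.926 over the 3 probes). For probe 3 the difference was 0.57, past the unadjusted threshold, when KO2 was left out, and 0.12, not past it, when KO3 was.

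Among the RSK kinases, 3 of 6 tested probes were lower in KO mice and 1 was higher, against 6.74% and 9.7% of all tested probes. The 3 lower ones were both *Rps6ka1* probes, read in the same mice, and *Rps6ka3* probe 1. *Rps6ka1*, which encodes RSK1, was lower on both of its probes. Probe 1, A_55_P2139256, read 0.02, 0.29 and 0.28 in WT mice and -0.68, -0.08 and -0.39 in KO mice. Probe 2, A_51_P150044, read -2.999, -2.81 and -2.67 in WT mice and -3.65, -3.19 and -4.003 in KO mice. On each probe all KO mice lay below all WT mice, with KO2 nearest to the WT range. The difference was -0.58 ± 0.20 (SE) or 1.5-fold on probe 1 (limma, 95% confidence interval -1.05 to -0.11, unadjusted p = 0.0214, Benjamini-Hochberg adjusted p = 0.219). On probe 2 it was -0.79 ± 0.23 (SE) or 1.73-fold (interval -1.34 to -0.24, unadjusted p = 0.0111, Benjamini-Hochberg adjusted p = 0.174). *Rps6ka1* was the one gene among the members with a pair of probes past the unadjusted threshold in the same direction. Probe 1 did not pass that threshold without WT2 (-0.54), WT3 (-0.54) or KO1 (-0.44), while probe 2 passed it without each of these mice. With the slide row as a block, where WT3 alone stood for the WT mice, the differences were -0.66 and -0.95. Without both WT3 and KO1 the differences were -0.40 and -0.70, neither past the threshold.

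*Rps6ka3*, which encodes RSK2, was lower at the threshold on its brightest probe when all arrays were used. Probe 1, A_55_P2787405, read 1.69, 1.99 and 1.498 in WT mice and 1.15, 1.06 and 0.54 in KO mice, and no KO mouse reached the WT range. The means were 1.73 ± 0.25 and 0.92 ± 0.33 (SD, n = 3 each). This is a difference of -0.81 ± 0.22 (SE) or 1.75-fold, with the smallest p of the members (limma, 95% confidence interval -1.34 to -0.28, unadjusted p = 0.00836, Benjamini-Hochberg adjusted p = 0.158). With the slide row as a block it was -0.58, not past the unadjusted threshold, and when any single array was left out it lay between -0.93 and -0.62 and passed. Probe 2, A_52_P283628, read -0.31, -0.27 and -0.07 in WT mice and -0.76, -0.83 and -0.16 in KO mice, with the WT3 spot marked. KO1 and KO2 were below all WT mice but KO3 was not, and the difference was -0.29 ± 0.25 (SE) with an interval from -0.91 to 0.32. It was -0.51, past the unadjusted threshold, without KO3 and -0.17, not past it, without KO2. Probe 3, A_55_P1952981, was dim and read -4.50, -4.60 and -4.10 in WT mice and -4.15, -4.50 and -4.76 in KO mice. Those groups overlapped, with a difference of -0.07 ± 0.22 (SE) and an interval from -0.59 to 0.45, and the difference was 0.079 without WT3 and 0.073 without KO3.

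*Rps6ka2*, which encodes RSK3, was higher in KO mice on its single, dim probe, A_55_P2822828. It read -4.49, -5.18 and -4.71 in WT mice and -4.42, -3.77 and -4.25 in KO mice. No WT mouse reached the KO range, although WT1 and KO1 differed by less than 0.1. The difference was 0.65 ± 0.25 (SE) or 1.57-fold (limma, 95% confidence interval 0.06 to 1.24, unadjusted p = 0.0345, Benjamini-Hochberg adjusted p = 0.262). The value moved with the processing, to 0.20 after normexp and 0.44 after quantile normalization, neither past the unadjusted threshold. It did not pass without WT2, WT3, KO2 or KO3 (0.46, 0.69, 0.46 and 0.70), with the muscle covariate (0.61) or under the slide row block (0.57).

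Disagreement between probes of one gene was tested as the ratio of the brightest probe to each other probe within an array, which does not depend on the scaling between arrays. Over 5453 such pairs of the array, 12.3% differed in their change at an unadjusted limma p under 0.05 and 0.0734% after adjustment. Of the 5 member pairs testable without marked spots, 1 differed. This was *Rps6ka3* probe 1 against probe 3, where the change of probe 1 minus that of probe 3 was -0.74 ± 0.27 (SE) on the log2 scale, with an interval from -1.38 to -0.10 (limma, unadjusted p = 0.0300, Benjamini-Hochberg adjusted p = 0.360). The pair did not pass without WT1 (-0.70), WT2 (-0.51), KO1 (-0.69) or KO3 (-0.69). *Rps6ka3* probe 1 against probe 2 gave -0.63 ± 0.42 (SE), which did not pass. The *Rps6ka1* probes differed by 0.21 ± 0.20 (SE), with an interval from -0.28 to 0.70, so a gap between them of up to 0.70 was not excluded.

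With marked spots kept, 8 member pairs could be tested and 3 differed, where the background was 12.4% of 7214 pairs. The change of *Mapk12* probe 1 minus that of probe 2 was -1.09 ± 0.28 (SE, interval -1.76 to -0.41, limma, unadjusted p = 0.00696, Benjamini-Hochberg adjusted p = 0.263). *Atf2* probe 1 against probe 3 gave -0.64 ± 0.23 (SE), past the unadjusted threshold, and -0.68 ± 0.30 (SE), not past it, with the marks left out. *Map2k3* probe 1 against probe 2 gave a difference near 0 with an interval from -0.44 to 0.44. In each of the 3 differing pairs the brighter probe had the lower change, counted with its sign. How many differing pairs of the array did so was not counted. Over all tested probes the median change also fell with brightness, from 0.14 at signals below -4 to -0.25 above 2. The transcript parts that the probes of one gene read were not compared, since no probe sequences were at hand.

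The difference between the groups varied with brightness over the whole array, and the members are read against that. The median log2 difference, KO minus WT, was 0.14 among probes with a mean scaled log2 signal below -4, and 0.13 between -4 and -2. It was 0.04 between -2 and 0, -0.09 between 0 and 2, and -0.25 above 2. In the dimmest range 12.6% of the probes were higher and 5.42% lower, whereas in the brightest 0.635% were higher and 8.79% lower (limma, unadjusted p under 0.05). *Mapk12* probe 2, *Mapk11* and *Rps6ka2*, the higher members, were in the ranges below -2, where higher calls were the more common. *Map2k6* and *Rps6ka1* probe 2 were in the range from -4 to -2 as well, where 5.88% of the probes were lower, and they moved against its median. *Map2k6* was at the edge of that range, with a mean of -2.06 over 6 arrays and -1.49 in WT mice. *Rps6ka1* probe 1, with a difference of -0.58, was in the range from -2 to 0, where 6.82% were lower. *Rps6ka3* probe 1 was in the range from 0 to 2, whose median of -0.09 was small beside its -0.81.

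**Figure D4:**
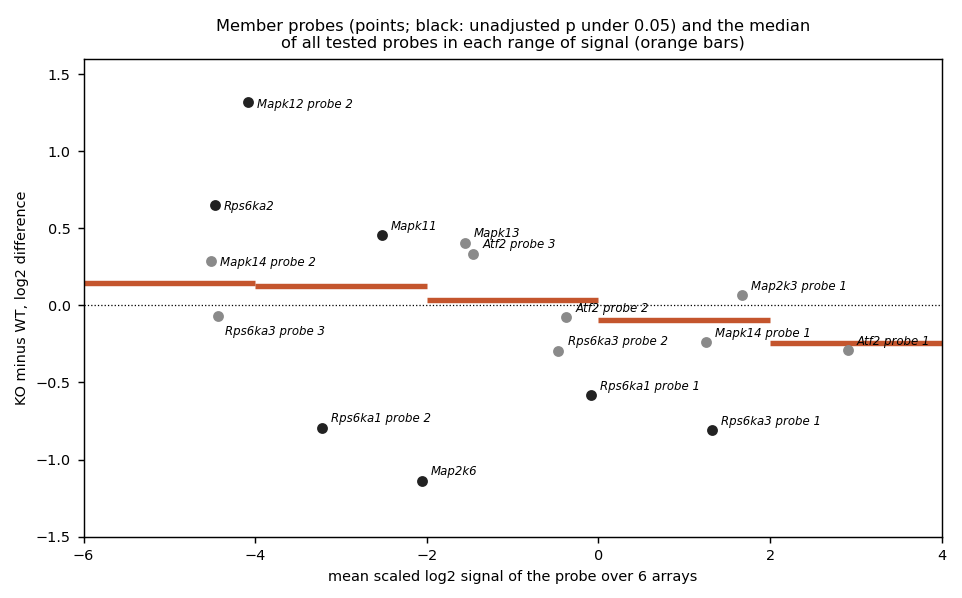
Log2 difference, KO minus WT (y axis), of the tested member probes against their mean scaled log2 signal over 6 arrays (x axis); black points passed an unadjusted p under 0.05, and orange bars give the median of all tested probes in each range of signal. The medians fall from 0.14 at the dim end to -0.25 at the bright end, and *Map2k6* and both *Rps6ka1* probes lie below a range median that is above 0.

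The other genes of the cascade were taken from 6 lists of 97 genes, each read on its brightest testable probe. Of the 81 that were tested, 7 were lower (8.64%) and 4 higher (4.94%), against 7.39% and 9.23% of all 14711 genes tested in this way (limma, unadjusted p under 0.05), and 0 were past the adjusted threshold. Their median log2 difference was -0.13, with 74.1% below 0, while over all genes it was -0.03, with 52.9% below 0. By mean scaled log2 signal, 32 of the 81 lay between 0 and 2 and 21 above 2, against 3670 and 2266 of all genes. Between 0 and 2 the median was -0.11 in the lists and -0.10 over all genes, with 81.2% and 65% below 0. Above 2 it was -0.24 and -0.25, with 95.2% and 88.4% below 0. The share of lower genes was thus near that of the array, and the share of higher genes below it, without matching for signal. Of all tested probes, 4.18% between 0 and 2 and 0.635% above 2 were higher.

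Upstream of MKK3 and MKK6, 3 of 18 tested genes were higher and 0 lower (median -0.03), against 9.23% and 7.39% of all genes tested. *Gadd45b*, whose protein binds and activates the kinase MEKK4 above p38, read 0.00, -0.24 and -0.19 in WT mice and 0.91, 0.75 and 0.79 in KO mice. The groups were well apart and tight, with a difference of 0.96 ± 0.15 (SE, limma, Benjamini-Hochberg adjusted p = 0.0744). *Map3k6*, a kinase related to ASK1, gave 0.69 ± 0.24 (SE), and did not pass the threshold without WT2 (0.45), without KO1 (0.57) or under the slide row block (0.39). *Pak1*, a kinase downstream of the GTPases RAC1 and CDC42, gave 1.07 ± 0.24 (SE) on a probe that was not well above background in WT3 and read below -4 in every mouse. After normexp background correction it gave 0.12. *Gadd45a* was testable only with marked spots kept and then gave 0.43, past the unadjusted threshold. In that setting the 6 lists together held 11 lower and 5 higher genes of 93 tested, against 1536 and 1409 of 16110 genes.

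Among effectors of p38, 2 of 18 tested genes were lower and 0 higher (median -0.19), against 7.39% and 9.23% of all genes tested. *Hspb1*, the small heat shock protein phosphorylated by MAPKAPK2, read 4.26, 4.88 and 4.47 in WT mice and 3.96, 3.87 and 4.34 in KO mice, with the WT1 spot marked. The difference of -0.62 ± 0.23 (SE) therefore rested on WT2 and WT3, which lay above all KO mice. With the marked spot kept KO3 lay above WT1, and the difference was -0.48 and did not pass, nor did it without KO1 (-0.57) or KO2 (-0.52). *Mapkapk3*, a kinase activated by p38, gave -0.35 ± 0.15 (SE) on its brightest probe, just past the unadjusted threshold and not past it when any single array was left out, and 0.44 on another probe. The direction of *Mapkapk3* therefore depended on the probe.

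In the RSK arm, from the RAS proteins to substrates of RSK, 1 of 18 tested genes was lower and 0 higher (median -0.13, 16 below 0). Over all genes tested, 7.39% were lower and 9.23% higher. Below 0 were 52.9% of all genes, but 65% of those with signals from 0 to 2 and 88.4% of those above 2. The lower gene was *Bad*, a pro-apoptotic protein that RSK phosphorylates, at -0.50 ± 0.17 (SE). It read 2.08, 2.50 and 2.27 in WT mice and 1.74, 1.70 and 1.90 in KO mice, without overlap, and without WT2, WT3, KO1 or KO2 the difference was between -0.51 and -0.40 and did not pass. *Mapk3*, which encodes ERK1, gave -0.03 ± 0.15 (SE) and did not pass the test. *Map2k2*, which encodes MEK2, gave -0.49 ± 0.21 (SE), not past the unadjusted threshold, and -0.50, past it, with marked spots kept. In that setting 2 of 22 tested genes of this arm were lower and 0 higher, against 1536 and 1409 of 16110 genes.

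The MAP kinase phosphatases, which remove the activating phosphates from p38, ERK and JNK, held 3 lower and 1 higher gene of 15 tested (median -0.26, 13 below 0). These are 20% lower and 6.67% higher, against 7.39% and 9.23% of all genes tested. Of all genes, 65% with signals from 0 to 2 and 88.4% above 2 were below 0. *Ptprr*, a tyrosine phosphatase that binds ERK and p38, read -2.34, -2.64 and -2.50 in WT mice and -3.23, -3.41 and -3.38 in KO mice. The groups were well apart, with a difference of -0.84 ± 0.16 (SE, limma, Benjamini-Hochberg adjusted p = 0.0939). *Dusp6*, a phosphatase selective for ERK, read 3.22, 3.84 and 3.41 in WT mice and 2.65, 2.24 and 2.94 in KO mice, a difference of -0.88 ± 0.25 (SE). *Dusp16*, which acts on JNK and p38, gave -0.71 ± 0.19 (SE), also without overlap. Under the slide row block, where WT3 alone stood for the WT mice, *Dusp6* and *Dusp16* gave -0.80 and -0.57, neither past the unadjusted threshold. *Ptpn7*, a phosphatase of leukocytes, gave 0.84 ± 0.29 (SE) on a dim probe and 0.36 on another, and the first did not pass without WT1, WT2, KO2 or KO3 (0.71, 0.85, 0.63 and 0.75).

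Of 8 target genes of p38 and ATF2 in brown fat, 3 could be tested without marked spots and none passed the threshold. Of all genes tested, 7.39% were lower and 9.23% higher. *Pparg* gave -0.33 ± 0.17 (SE). *Il6* (-0.58 ± 0.55, SE) and *Fgf21* (0.76 ± 0.75, SE) were dim, with group means from -5.51 to -4.74, and their errors were wide. With marked spots kept, *Dio2* gave -0.68 ± 0.35 (SE) and *Cidea* -0.33 ± 0.21 (SE), neither past the threshold. *Ucp1* was marked on all 6 arrays. With those spots kept it read 5.51, 5.85 and 5.53 in WT mice and 5.10, 4.999 and 5.65 in KO mice, so KO1 and KO2 were below the WT mice and KO3 was not. The difference was -0.38 ± 0.22 (SE, limma, Benjamini-Hochberg adjusted p = 0.402). *Ppargc1a*, which encodes PGC-1α, had 2 probes, neither testable with marked spots left out. The brightest that could be fitted with them kept read 3.76, 3.39 and 3.52 in WT mice and 2.95, 2.87 and 3.10 in KO mice, with 4 of these spots marked. All KO mice lay below all WT mice, as they did for 11.7% of the array's probes without a marked spot. The difference was -0.59 ± 0.16 (SE, limma, unadjusted p = 0.00832, Benjamini-Hochberg adjusted p = 0.153). After quantile normalization it was -0.37 and did not pass the threshold.

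The promoters of the members were searched for the site that ATF2 and CREB bind, since both act at the end of this cascade. In the 300 bases from 250 before to 50 after each start (RefSeq, GRCm38.p6), 9 of the 10 genes were listed, with 14 promoters. The full site TGACGTCA was in 0 of the 14, where 1.79% of all 32851 promoters held it. Its shorter form TGACG, sought on both strands and contained in the full site, was in 2 of them and in 20.8% of all promoters. These are shown because they belong to a lower and a higher member, with the match in capitals and 10 bases on either side, in the direction of the gene on the minus strand.
Rps6ka1, chr4:133887789-133887813: cggcgccgggTGACGgagcgagccg
Mapk11, chr15:89149802-89149826: gaagtttcatCGTCAcccccatggg
The match began 6 bases before the start of *Rps6ka1* and 210 bases before that of *Mapk11*, where it lay on the opposite strand.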

How the data were processed

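Total RNA of BAT was hybridized to Agilent mouse (V2) gene expression arrays, 3 WT and 3 miR-22 KO. The scanner output that the authors deposited holds spot intensity values, made with Agilent Feature Extraction 11.5.1.1 by its headers (10.7 in the submitters' processing notes), with background subtracted and no scaling between arrays. They also deposited a table of log2 values of 27497 probes, whose normalization is not given in the sources used here. Its columns share 1 maximum, as quantile normalization gives.

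Of 59305 non-control spots, replicate spots were averaged to 56605 probes. Of these, 33767 were matched to genes through RefSeq (GRCm38.p6). Probe positions were not used, since the array design names mm9. Intensities were divided by the 75th percentile of their array and log2 transformed. Marked spots were left out. Probes well above background on at least 3 arrays (35651), with at least 2 unmarked values per group (all but 4413), were tested with lmFit and eBayes of limma 3.58.1 in R 4.3.3 with version 1.17.8 of data.table, two-sided, at 0.05 unadjusted and after Benjamini-Hochberg adjustment over 31238 probes. No spot was saturated. The precision rests on 3 arrays per group, or on 2 where a marked spot was left out. With 1 array per mouse, the spread behind the p-values mixes mice and arrays, and eBayes draws it toward that of the other probes. The pairs were tested in the same way on log2 ratios within an array. Steps were tested on simulated data.

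The members, lists, named genes and tests were chosen with earlier results of these data known. The named genes were all member probes, from each list at most 4 genes with the smallest p past the unadjusted threshold, *Ucp1*, *Ppargc1a* and *Mir22hg*. *Gadd45a*, *Mapk3*, *Map2k2*, *Pparg*, *Il6*, *Fgf21*, *Dio2* and *Cidea* were named after their values were seen. Alternatives were quantile and median scaling, normexp with an offset of 50, the authors' values, other filters on dim probes, marked spots kept, 1 probe per gene, the methods' t-test, SAM, a trended and robust eBayes, the slide row, a muscle covariate, and leaving out each array. Leaving out WT3 and KO1 together, the muscle covariate with marked spots kept, and every alternative for the pathway lists were added after seeing the data.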

Additional observations from a re-analysis of the deposited data

How the results depend on the processing

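No paired analysis was possible because the labels share no replicate numbers between the groups. No member passed the adjusted threshold under any alternative run. The 4 lower member probes numbered 2 with the slide row as a block and 2 within the second row alone, where WT has only WT3 and its spread is taken from the KO mice, and 1 without WT3 and KO1. Leaving out single arrays gave 3 to 5. The 3 higher member probes numbered 1 after quantile normalization, normexp, the authors' values, no filter on dim probes, and quantile normalization with marked spots kept, 0 with the row block and 1 within the second row. Leaving out single arrays gave 1 (without WT2) to 3.

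Over all probes, 2104 were lower and 3031 higher. Lower calls were 3427 after quantile normalization with marked spots kept, 1297 with 1 probe per gene, 772 with the row block, 477 within the second row, 1280 without WT3 and KO1, and 1200 (without WT2) to 1992 without single arrays. Higher calls were 1666 after normexp, 1953 with the authors' values, 1476 with 1 probe per gene, 1864 with the row block, 1345 within the second row, and 2100 to 2899 without single arrays. Lower calls were 58.2% of all calls after normexp and 27.9% with no filter, against 41%.

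The pathway lists' 7 lower genes numbered 4 with no filter, 11 with marked spots kept, 1 with the row block and 1 within the second row, and 3 (without WT2) to 9 without single arrays, with 4 without WT3 and 4 without KO2. Their 4 higher genes numbered 2 after normexp, 2 with the methods' t-test, and 3 to 7 (without WT1). The 1 differing member pair became 0 with the authors' values, 3 with marked spots kept, and 0 to 1 without single arrays, with 0 without WT1, WT2, KO1 or KO3.

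Where a gene was read on its brightest testable probe, *Mapk14* reversed to 0.086 with the authors' values, and leaving out single arrays gave -0.24 to 0.48, above 0 without WT1, WT2, KO2 or KO3. *Atf2* reversed to 0.20 within the second row, and single arrays gave -0.29 to 0.57, above 0 without WT1, WT2 or KO2. In these the bright probe was not testable or not listed and a dimmer probe stood for the gene. *Map2k3* gave -0.044 (without WT1) to 0.17 when single arrays were left out, and its probe 2 gave -0.0016 with marked spots kept and the muscle covariate. Of the other alternative values of genes on their brightest testable probe and of the 4 genes and probes read with marked spots kept, 395 kept their direction and side of the threshold, 98 kept the direction but lost the threshold and 5 gained it. The other probes of the members are outside this tally. Of these, *Rps6ka3* probe 3 (-0.07) was above 0 without WT3 or KO3 and with the muscle covariate (0.048), *Atf2* probe 2 (-0.08) was 0.15 after normexp and 0.024 with marked spots kept and the muscle covariate, and *Mapk14* probe 2 (0.29) was -0.0073 with the row block and within the second row. Normexp moved *Mapk12* probe 2 from 1.32 to 0.65, *Rps6ka2* from 0.65 to 0.20 and *Atf2* probe 3 from 0.34 to 0.13. Causes were not tested.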

Other observations

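The JNK arm, the other stress-activated branch of the MAP kinases, held 1 lower and 0 higher gene of 9 tested. Its median log2 difference was -0.13, with 8 genes below 0. Of all genes tested, 7.39% were lower, 9.23% higher and 52.9% below 0, with 65% below 0 at signals from 0 to 2. The lower gene was *Mapk8ip1*, a scaffold that holds JNK and its activators together. It read -0.54, 0.39 and -0.62 in WT mice and -1.19, -0.71 and -1.20 in KO mice, so that KO2 lay just below the lowest WT mouse. The difference was -0.77 ± 0.30 (SE, limma, Benjamini-Hochberg adjusted p = 0.273), and it did not pass the unadjusted threshold without WT2 (-0.45), KO1 (-0.69) or KO3 (-0.69).

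Markers of other cell types, given as the mean scaled log2 signal of each list, varied less between mice than those of skeletal muscle. Macrophage genes lay between 1.08 and 1.302 in WT mice and between 1.27 and 1.604 in KO mice, and lymphocyte genes between -4.56 and -4.02 and between -3.996 and -3.79. White adipocyte genes lay between -1.61 and -1.43 in WT mice and between -1.44 and -0.89 in KO mice, genes of all adipocytes between 4.14 and 4.44 and between 3.88 and 4.35. Endothelial genes lay between 1.33 and 1.599 and between 1.36 and 1.52, and nerve genes between -0.56 and 0.02 and between -0.63 and -0.35. Of 11 epithelial genes, 4 were well above background on no array. The part of these cell types in the members' values was not tested.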
